A study of Mus musculus with 12 samples.

Results

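Endoplasmic reticulum-associated degradation (ERAD) is the route by which misfolded proteins leave the endoplasmic reticulum (ER) and are destroyed by the proteasome. Sugar-trimming proteins mark the misfolded glycoprotein, an adaptor passes it to a ubiquitin ligase in the ER membrane, and membrane proteins help to pull it back into the cytosol. Hepatocytes secrete large amounts of protein, and many genes of this route are targets of the unfolded protein response (UPR), the program that ER stress switches on. The 10 genes described here were taken by name from the deposited expression table. They were the derlins Derl1, Derl2 and Derl3, the mannosidase-like genes Edem1, Edem2 and Edem3, the ligase genes Sel1l and Syvn1, and the cofactor genes Selenos and Herpud1. All 10 were found among the 17498 genes with a protein-coding transcript, and all 10 passed the filter on low values that left 11989 genes to test.

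Liver RNA came from male C57/BL6N mice, with 3 livers in each of 4 groups. The control mice are labelled as wild type, and what they were injected with is not stated. The model mice were given carbon tetrachloride (CCl4), a hepatotoxin that hepatocytes turn into a radical, for 8 weeks. Every week had 2 intraperitoneal doses of 5 mL/kg, with olive oil as the vehicle and CCl4 to oil at 1:9 by volume. The mice on either drug had the same injections and from week 5 also received silibinin, a milk thistle flavonolignan used for liver disease, or 40 mg/kg (the high dose) of phloridzin, a plant glucoside that inhibits sodium-glucose cotransporters. Each library was made from whole liver, so a change in the number of cells of a type and a change in RNA per cell cannot be told apart. The p-values measure the spread between the mice of these groups.

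Expression was given as FPKM, fragments per kilobase of transcript adjusted for library size, and was summed over the transcripts of each gene. The table held no read counts, but low values of long transcripts were whole multiples of a step set by the library, within 0.05 of a step for 98.6% to 98.8% of them. By this measure the libraries held 105 to 110 M steps for control, 83.7 to 101 M for model, 107 to 111 M for silibinin and 98.5 to 105 M for phloridzin. How many steps make up 1 fragment was not settled. The shallowest library, model liver 1, also had the highest share of its FPKM in retained-intron transcripts, 8.33%, against 4.03% to 5.69% in the other 11 livers.

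As deposited, all 10 ERAD genes were higher in the model group than in the control group, and every model liver lay above every control liver. The same held for 46.4% of all genes tested. In both drug groups all 10 lay below the model group with no overlap, as did 28.4% of all genes with silibinin and 23.2% with phloridzin. The genes at large were shifted as well. The median log2 fold change over all genes tested was 0.35 from control to model, -0.15 from model to silibinin and -0.11 from model to phloridzin. The values below are as deposited unless another setting is named. Some are therefore also given after scaling each liver by its median ratio to the other livers. Scaling brought the medians over all genes to 0.03, 0.01 and 0.03. The medians over the ERAD genes were 1.03, -1.15 and -1.18 as deposited, and 0.62, -0.95 and -0.99 after scaling. The comparisons share the model livers, so their values are not independent of each other.

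**Figure D1:**
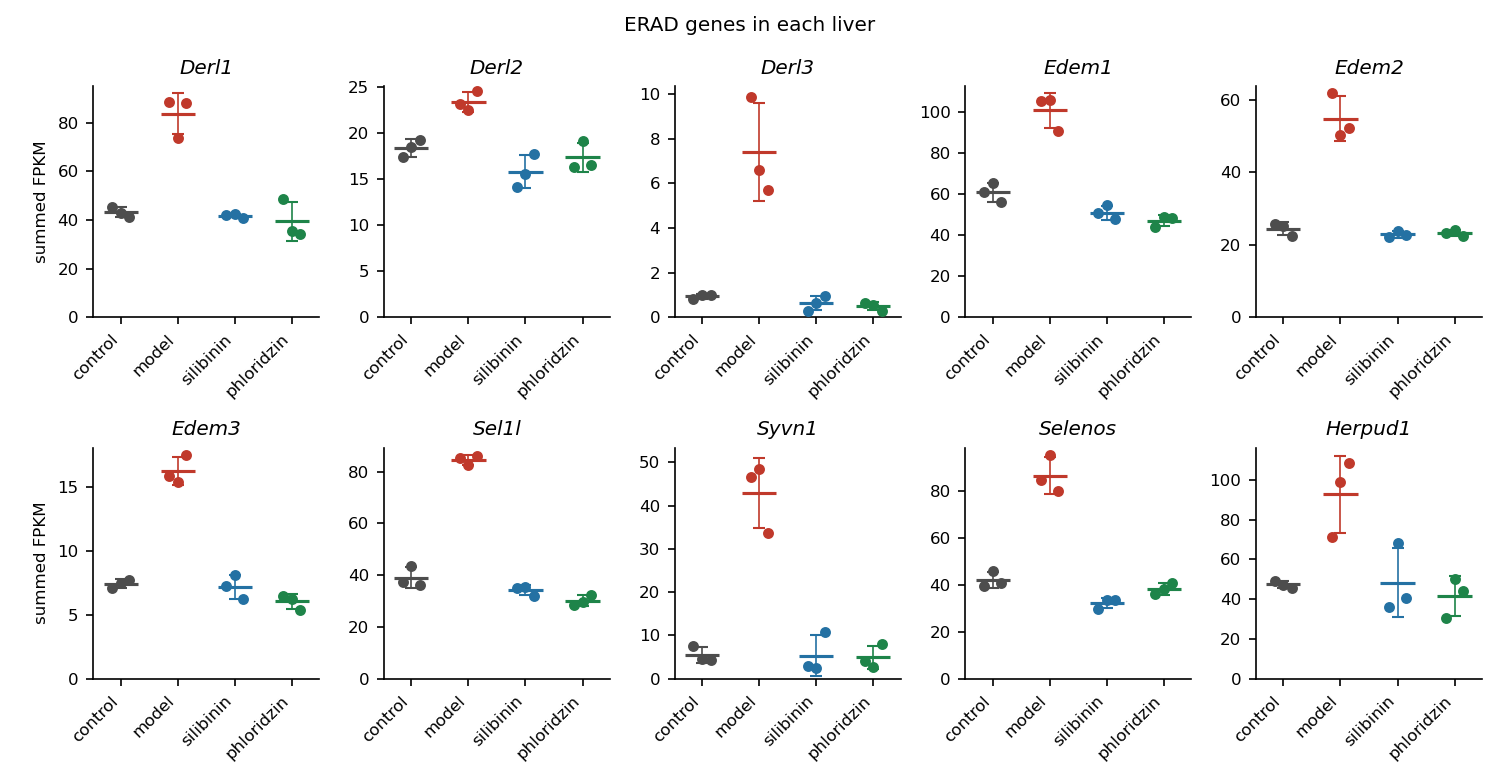
Summed FPKM of each ERAD gene (vertical axis) in the 12 livers by group, each point 1 liver, with the mean as a line and the SD as a bar (n = 3). For each gene the 3 model livers sit above the other 9 livers, and the gap is widest in proportion for Derl3 and Syvn1.

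The promoters of 9 of the 10 genes could be read, and those of Derl3, Syvn1 and Herpud1 are shown because they hold a complete ER stress response element (ERSE) or ERSE-II, motifs bound by UPR factors. Derl3 and Syvn1 hold the complete ERSE and Herpud1 the complete ERSE-II. The last bases of the Herpud1 stretch also match the ERSE in all but its last letter, and such partial matches were not counted. The windows ran from 250 bases before to 50 bases after the transcription start in RefSeq on GRCm38.p6, and both strands were searched. The element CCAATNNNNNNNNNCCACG was found in 0.119% of 32851 promoters, and ERSE-II, in which the CCAAT part is reversed and 1 base from CCACG, in 0.0365%. The stretches below end before the transcription start, read 5′ to 3′ on the strand of the gene, and have the match in capitals. The Derl3 stretch is chr10:75893197-75893305 (plus strand), the Syvn1 stretch is chr19:6046487-6046575 (plus strand), and the Herpud1 stretch is chr8:94386332-94386428 (plus strand).
Derl3: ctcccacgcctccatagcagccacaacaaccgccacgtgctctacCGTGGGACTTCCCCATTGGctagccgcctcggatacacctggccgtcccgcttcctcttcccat
Syvn1: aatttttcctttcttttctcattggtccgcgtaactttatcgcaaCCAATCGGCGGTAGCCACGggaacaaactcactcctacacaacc
Herpud1: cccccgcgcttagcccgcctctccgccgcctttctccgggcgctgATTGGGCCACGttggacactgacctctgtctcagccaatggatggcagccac
The match in Derl3 is the element on the opposite strand and spans bases -156 to -138 from the start, that in Syvn1 spans -44 to -26 and that in Herpud1 spans -52 to -42. The short core CCACG, which both elements contain, was present in the windows of all 9 genes but also in 32.8% of all promoters. The UPR element core TGACGTG and the cyclic AMP response element TGACGTCA, present in 2.01% and 1.79% of promoters, were found in none of the 9 windows. A match is a description of the letters and not evidence of binding. Derl1 was not among the promoters read.

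Derlins are multi-pass membrane proteins of the channel through which ERAD substrates leave the ER. Derl1 (ENSMUSG00000022365, chr15:57869502-57892448 on GRCm38) had 45.4, 42.9 and 41.3 FPKM in the control livers, 88.7, 73.9 and 88.3 in the model livers, 42.1, 42.4 and 40.9 in the silibinin livers, and 48.6, 35.3 and 34.2 in the phloridzin livers. Phloridzin liver 1 was above all control livers and the other phloridzin livers were below them. Derl1 was the most abundant derlin in each group, with 69.1% of the summed derlin FPKM in control and 73.0% in model livers. From control to model its log2 fold change was 0.93 ± 0.14 (SE), and 0.51 after scaling.

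Derl2 (ENSMUSG00000018442, chr11:71007164-71019841) moved least in the comparisons with the model group. It had 17.4, 18.5 and 19.2 FPKM in the control livers, 23.2, 22.5 and 24.6 in the model livers, 14.1, 15.6 and 17.7 in the silibinin livers, and 16.4, 19.2 and 16.6 in the phloridzin livers. From control to model it had a log2 fold change of 0.34 ± 0.11 (limma, adjusted p = 0.042), close to the median of all genes, and of -0.07 after scaling (adjusted p = 0.74). Its share of the derlin FPKM was 29.4% ± 2.00 (SD, n = 3) in control and 20.5% ± 1.42 in model livers. Derl2 overlaps Mis12 on the opposite strand by 231 bases, and whether the libraries kept the strand of the reads is not stated.

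Derl3 (ENSMUSG00000009092, chr10:75893413-75895941), a derlin known to be induced by ER stress and abundant in secretory cells, was the lowest of the 10 genes in every group. It had 0.818, 0.996 and 0.977 FPKM in the control livers and 9.89, 6.62 and 5.73 in the model livers. The silibinin livers had 0.292, 0.646 and 0.940 FPKM and the phloridzin livers 0.626, 0.536 and 0.276. The mean in the model group was 7.97 times that in the control group, 11.8 times that in the silibinin group and 15.5 times that in the phloridzin group. The log2 fold change, taken on FPKM + 1 and so understated at such levels, was 2.09 ± 0.20 from control to model, and 1.80 after scaling. Derl3 carries the ERSE shown above. Transcripts annotated as noncoding made up 76.1% of its FPKM in control and 62.1% in model livers. They are 362 to 815 bases long and its coding transcripts 1316 and 1321. FPKM is per kilobase, so their share of the fragments is smaller than these percentages.

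The EDEM proteins recognise and trim the mannose residues of misfolded glycoproteins, the step that commits them to degradation. Edem1 (ENSMUSG00000030104, chr6:108828641-108859356) was the most abundant of the 10 genes in each group by mean. It had 61.3, 65.5 and 56.0 FPKM in the control livers, 106, 106 and 90.9 in the model livers, 50.6, 54.6 and 47.7 in the silibinin livers, and 44.2, 48.7 and 48.4 in the phloridzin livers. All 6 drug-treated livers were below all 3 control livers. As deposited, neither drug group passed the test against control (limma, adjusted p = 0.23 for silibinin and 0.077 for phloridzin). From control to model the log2 fold change was 0.72 ± 0.12 as deposited and 0.30 after scaling, where it did not pass the test (adjusted p = 0.090).

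Edem2 (ENSMUSG00000038312, chr2:155701677-155729475) had 25.8, 25.1 and 22.4 FPKM in the control livers, 61.9, 50.5 and 52.3 in the model livers, 22.1, 23.8 and 22.8 in the silibinin livers, and 23.3, 24.2 and 22.4 in the phloridzin livers. Edem3 (ENSMUSG00000043019, chr1:151755371-151822051) had 7.07, 7.48 and 7.75 FPKM in the control livers, 15.9, 15.4 and 17.5 in the model livers, 7.24, 8.08 and 6.21 in the silibinin livers, and 6.50, 6.21 and 5.40 in the phloridzin livers. The model means were 2.25 and 2.19 times the control means, and for Edem2 the livers given a drug overlapped the control livers. For Edem3 the phloridzin livers were all below the control livers, while the silibinin livers overlapped them. As deposited, the difference of phloridzin from control did not pass the test (limma, adjusted p = 0.2). From control to model the log2 fold change was 1.13 ± 0.11 for Edem2 and 1.03 ± 0.12 for Edem3, and 0.72 and 0.64 after scaling.

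Edem1 made up 65.6% ± 0.999 of the summed EDEM FPKM in control and 58.6% ± 2.73 in model livers, and Edem2 made up 26.3% ± 0.948 and 31.9% ± 2.29 (SD, n = 3). Edem3 made up 8.04% ± 0.829 and 9.49% ± 1.21. The difference in these shares was not tested.

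Sel1l and Syvn1 form the core of the main ERAD ligase: SEL1L is the adaptor that receives substrates, and SYVN1, also called HRD1, is the ubiquitin ligase. Sel1l (ENSMUSG00000020964, chr12:91806043-91849157) had 37.2, 43.6 and 36.3 FPKM in the control livers, 85.3, 82.5 and 86.0 in the model livers, 35.2, 35.3 and 32.0 in the silibinin livers, and 28.3, 29.6 and 32.5 in the phloridzin livers. The model livers were tightly grouped, and all 6 drug-treated livers were below all 3 control livers. As deposited, neither drug group passed the test against control (limma, adjusted p = 0.36 for silibinin and 0.066 for phloridzin). The log2 fold change was 1.10 ± 0.11 from control to model, -1.28 ± 0.11 from model to silibinin and -1.46 ± 0.11 from model to phloridzin. After scaling these were 0.68, -1.07 and -1.28.

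Syvn1 (ENSMUSG00000024807, chr19:6046576-6053712) had the largest log2 fold changes of FPKM + 1 in the comparisons with the model group, while the ratios of the group means were larger for Derl3. It had 7.63, 4.49 and 4.19 FPKM in the control livers, 46.6, 48.5 and 33.7 in the model livers, 2.88, 2.39 and 10.7 in the silibinin livers, and 4.03, 2.77 and 7.93 in the phloridzin livers. The lowest model liver was more than 3 times the highest of the other livers, and silibinin liver 3 and phloridzin liver 3 stood above the other livers of their groups. The mean in the model group was 7.90 times that in the control group. Its log2 fold changes of 2.79 ± 0.46 in the model group, -3.02 ± 0.46 with silibinin and -2.97 ± 0.46 with phloridzin ranked 40 from the highest, 13 from the lowest and 13 from the lowest of the 11989 genes. In the control group Syvn1 stood below Edem3 and in the model group above Edem3 and Derl2, so its place in the order of levels moved from rank 9 to rank 7 of 10. It overlaps Mrpl49 on the opposite strand by 91 bases.

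The transcripts behind Syvn1 differed between livers of the same group. The coding transcript ENSMUST00000156550 had 29.0 and 21.6 FPKM in model livers 1 and 3 and was listed at 0 in model liver 2, where the coding transcript ENSMUST00000138532 had 26.8 FPKM against 0.766 and 0.692 in the other model livers. ENSMUST00000156550 was listed at 0 in 8 of the 12 livers. The retained-intron transcript ENSMUST00000142101, in contrast, had 13.4, 11.003 and 9.85 FPKM in the model livers and a mean of 1.15 in the control livers, 1.36 in the silibinin livers and 1.299 in the phloridzin livers. Judged by its single most abundant transcript, Syvn1 did not pass the test from control to model (log2 fold change 2.24, limma, adjusted p = 0.23), while the sum over its coding transcripts had a log2 fold change of 2.67.

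**Figure D2:**
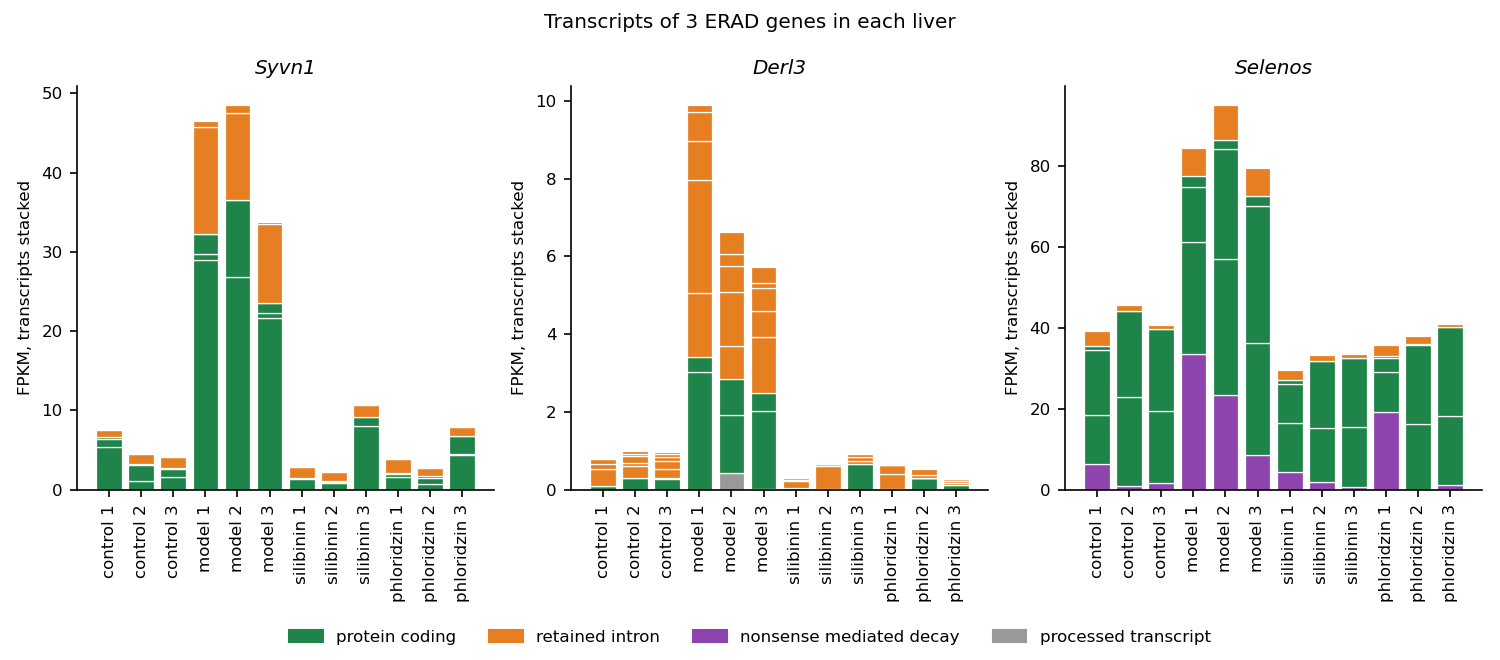
FPKM of the transcripts of Syvn1, Derl3 and Selenos stacked in each of the 12 livers (vertical axis, FPKM), coloured by annotated type. The coding segments of Syvn1 change identity between model livers 1 and 2, retained-intron segments make up much of Derl3, and the nonsense-mediated decay segment of Selenos is tall in model livers 1 and 2 and in phloridzin liver 1.

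Selenos encodes a selenoprotein of the ER membrane that binds derlins and the ATPase VCP, which pulls substrates out of the membrane. Selenos (ENSMUSG00000075701, chr7:66079649-66089405) had 39.3, 45.8 and 40.6 FPKM in the control livers, 84.5, 95.05 and 79.6 in the model livers, 29.5, 33.2 and 33.5 in the silibinin livers, and 35.8, 37.9 and 40.9 in the phloridzin livers. The silibinin livers were all below the control livers and all below the phloridzin livers. As deposited, neither difference passed the test (limma, adjusted p = 0.087 against control). Part of the rise lay in the transcript ENSMUST00000205279, annotated as a target of nonsense-mediated decay, with 33.6, 23.5 and 8.47 FPKM in the model livers and a mean of 2.90 in the control livers. Noncoding and decay transcripts together made up 12.3% of Selenos FPKM in control and 33.8% in model livers. On coding transcripts alone the log2 fold change over control was 0.61 and did not pass the test (limma, adjusted p = 0.22), against 1.03 ± 0.12 over all transcripts.

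Herpud1 encodes a ubiquitin-like membrane protein that assembles with SYVN1 and is a classical ER stress gene. Herpud1 (ENSMUSG00000031770, chr8:94386438-94395377) had 49.2, 47.3 and 45.7 FPKM in the control livers, 71.2, 98.9 and 109 in the model livers, 36.1, 68.1 and 40.8 in the silibinin livers, and 30.3, 49.99 and 43.9 in the phloridzin livers. Silibinin liver 2 came closest to the model livers. From control to model the log2 fold change was 0.93 ± 0.26, and 0.51 after scaling, where it did not pass the test (adjusted p = 0.18). Herpud1 overlaps the antisense gene Gm15890 by 535 bases.

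The first comparison asked how CCl4 injury changed the ERAD genes. A gene was called when its adjusted p was under 0.05 (limma, two-sided, Benjamini-Hochberg over all genes tested) and its log2 fold change was above 1 or below -1. Derl3, Edem2, Edem3, Sel1l, Syvn1 and Selenos were called higher, 6 of the 10 genes, against 9.98% of all genes tested. All 10 passed the adjusted p alone, against 32.8% of all genes, with adjusted p from 9.4e-05 for Derl3 to 0.042 for Derl2. Derl2 did not pass with the replicate block (0.052), in a fit of only the compared groups (0.051), on its top transcript (0.067), without any 1 control or model liver (0.06 to 0.12), without silibinin liver 2 (0.058) or without phloridzin liver 3 (0.051), and Herpud1 did not pass without model liver 2 or model liver 3. All 10 were higher with no overlap between the groups, as were 46.4% of all genes. After scaling only Derl3 and Syvn1 passed the fold cutoff, 2 of 10 against 4.37%, and 7 of 10 passed the adjusted p alone against 14.7%. Derl2, Edem1 and Herpud1 were the genes that did not. Over all genes, 1197 were called higher and 135 lower as deposited, and 521 higher and 408 lower after scaling.

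The second comparison asked how silibinin changed them in injured livers. Derl3, Edem2, Edem3, Sel1l, Syvn1 and Selenos were called lower than in the model group, 6 of 10 against 3.49% of all genes. All 10 passed the adjusted p alone (12.5% of all genes), from 5.7e-05 for Selenos to 0.030 for Herpud1, and all 10 lay below the model group without overlap (28.4%). After scaling 5 were called (1.97% of all genes) and 8 passed the adjusted p (7.21%), all but Derl2 and Herpud1. As deposited, Herpud1 no longer passed in a fit of only the compared groups, on its top transcript, or without model liver 2 or 3 or silibinin liver 1 or 3. Over all genes, 95 were called higher and 419 lower as deposited, and 173 higher and 235 lower after scaling.

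The third comparison did the same for phloridzin. All genes but Derl2 were called lower than in the model group, 9 of 10 against 3.12% of all genes. All 10 passed the adjusted p alone (11.2%), from 3e-05 for Sel1l to 0.037 for Derl2, and all 10 lay below the model group without overlap (23.2%). After scaling Derl3, Edem2, Edem3, Sel1l and Syvn1 were called, 5 of 10 against 1.95%, and 9 passed the adjusted p (6.86%), all but Derl2. Over all genes, 78 were called higher and 374 lower as deposited, and 141 higher and 233 lower after scaling. Derl2 no longer passed the adjusted p with the replicate block, in a fit of only the compared groups, on its top transcript, without any 1 model liver, or without control liver 1 or 2, silibinin liver 2, or phloridzin liver 1 or 3. For Herpud1, in a fit of only the compared groups or without model liver 2 or model liver 3 it no longer passed the adjusted p, and without phloridzin liver 1 its log2 fold change was -0.95.

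**Figure D3:**
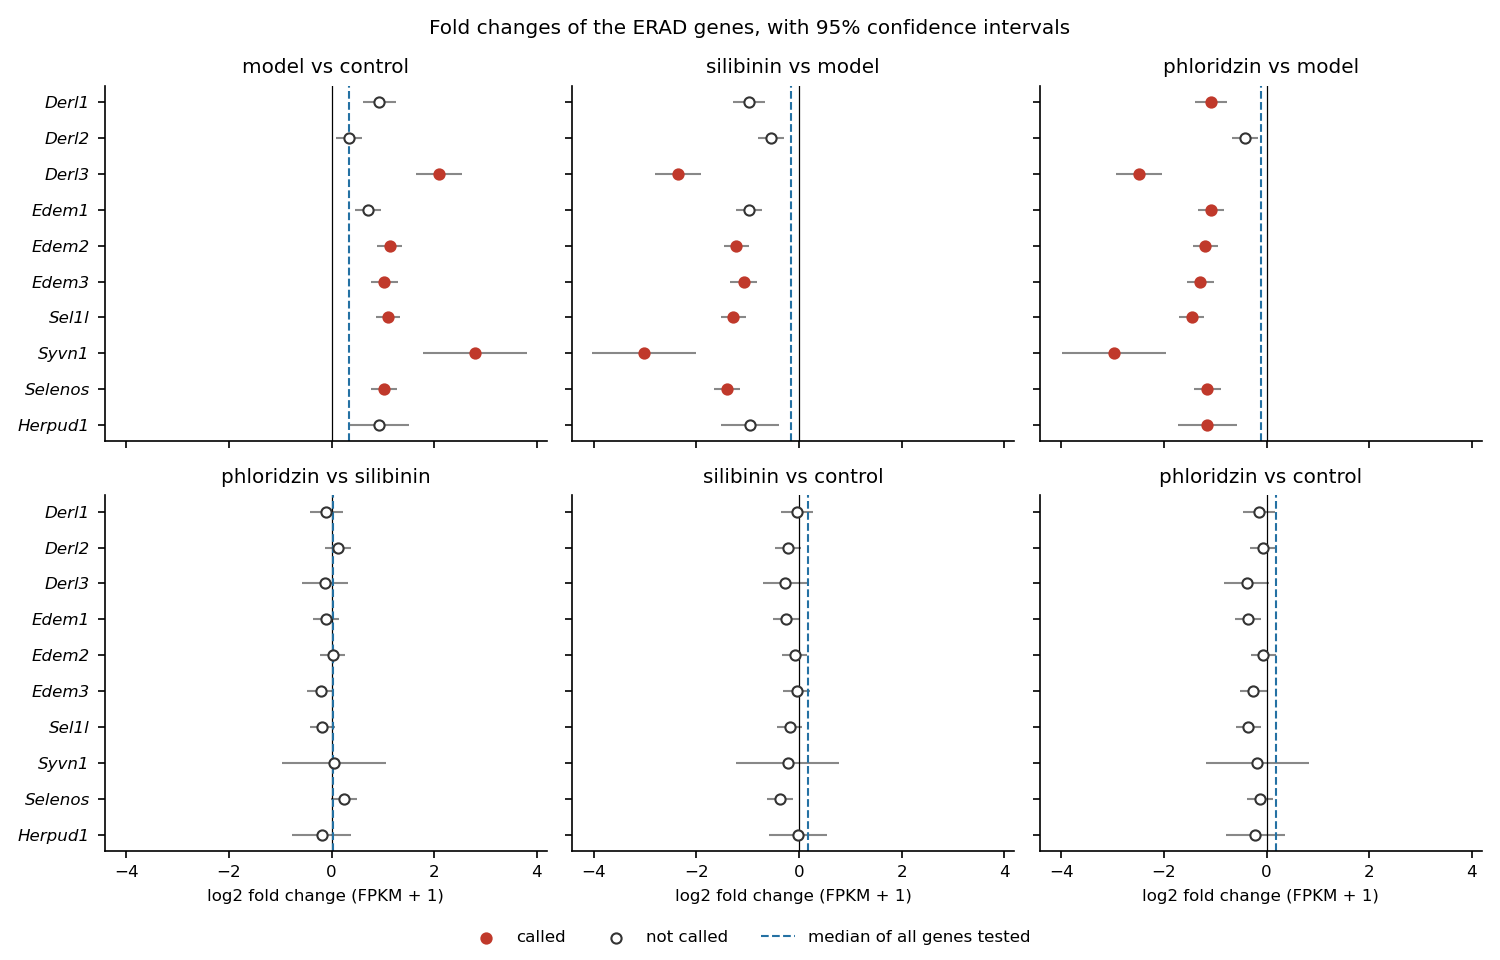
Log2 fold change of summed FPKM + 1 (horizontal axis) for each ERAD gene in the 6 comparisons, with the 95% confidence interval as a line, filled points for called genes and a dashed line at the median of all genes tested. The intervals of all 10 genes lie above 0 from control to model and below 0 from model to either drug.

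**Figure D4:**
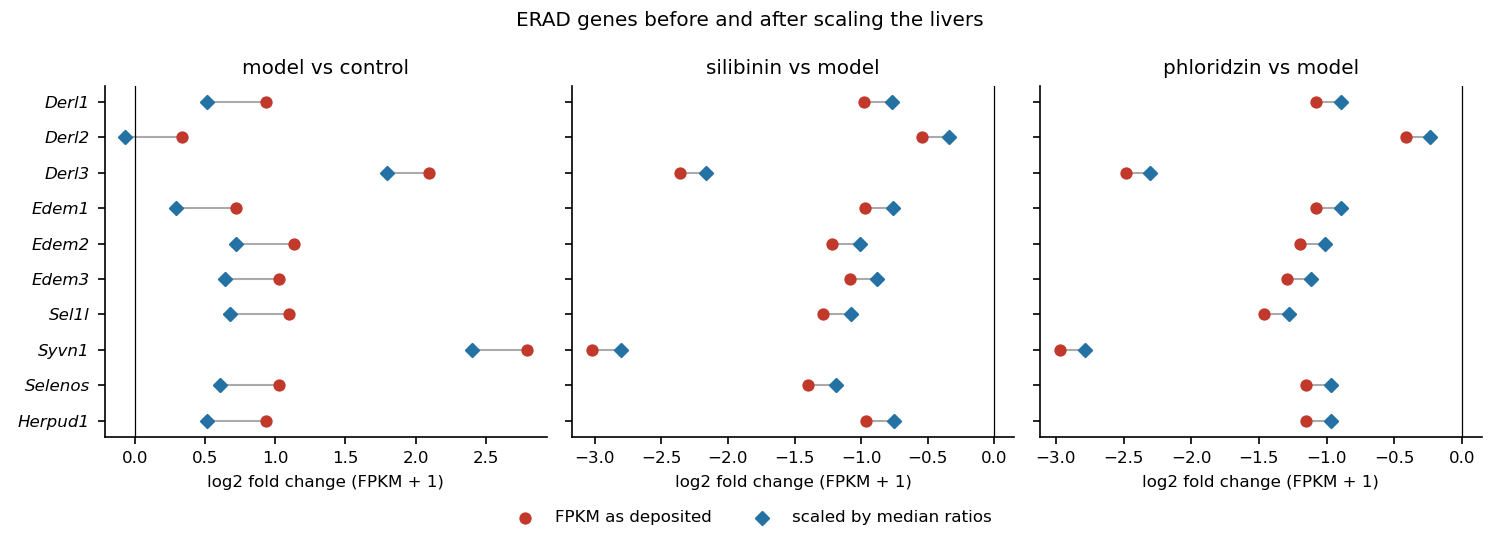
Log2 fold change of each ERAD gene (horizontal axis) from FPKM as deposited (circles) and after scaling by median ratios (diamonds) in 3 comparisons. Scaling moved every gene towards 0 in all 3 panels, and Derl2 crossed 0 from control to model.

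The silibinin and phloridzin groups were compared directly. No ERAD gene passed the adjusted p in limma (0 of 10, with 0.025% of all genes passing), none had an unadjusted p under 0.05, and none passed with voom, a weighted test of the recovered steps. The log2 fold changes of phloridzin against silibinin ran from -0.21 for Edem3 to 0.25 for Selenos. The 95% confidence intervals reached from -0.97 to 1.06 for Syvn1, the widest, and from -0.01 to 0.50 for Selenos. The doses of the agents differ, and no comparison at a matched dose could be made.

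Compared with the control group, all 10 genes had negative log2 fold changes in both drug groups, between -0.37 and -0.03 for silibinin and between -0.39 and -0.06 for phloridzin. For Herpud1 the mean FPKM itself was slightly higher with silibinin than in control, 48.3 against 47.4. The median over all genes was 0.16 for silibinin and 0.19 for phloridzin. None of the 10 passed the adjusted p in either (5.96% and 9.23% of all genes did, in either direction). Of the 11989 genes only 63 were lower with silibinin and 65 lower with phloridzin by that measure, against 652 and 1042 higher. At an unadjusted p under 0.05 there was 1 with silibinin, Selenos, and 2 with phloridzin, Edem1 and Sel1l. With voom 0 and 2 of the genes passed at an adjusted p under 0.05. No share over all genes is given for these counts, and they are not read as a result. With silibinin all livers lay below all control livers for Edem1, Sel1l and Selenos. With phloridzin they did so for Derl3, Edem1, Edem3 and Sel1l. The share of all genes separated in this way was not computed, so these separations are not read as a result either. After scaling, a setting chosen with a relaxed fold cutoff after the data had been seen, Selenos was lower with silibinin (log2 fold change -0.58, adjusted p = 0.038, 1 of 10 against 1.25% of all genes). With phloridzin Edem1, Edem3 and Sel1l were lower after scaling (-0.60, -0.48 and -0.60, 3 of 10 against 1.66%).

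Of 56 other genes of the ERAD route that were tested, 6 were called higher and 1 lower in the model group. Of all genes tested, 9.98% were called higher and 135 of 11989 lower. The median log2 fold change of the 56 was 0.30, under the 0.35 of all genes. Compared with the model group 3 were called lower with silibinin and 3 with phloridzin (3.49% and 3.12% of all genes), with medians of -0.33 and -0.20 against -0.15 and -0.11 over all genes. Among them Rnf185, a ubiquitin ligase of the ER membrane, had 11.8 ± 0.645 FPKM in control and 25.8 ± 3.13 in model livers (SD, n = 3), and 11.3 ± 0.494 and 10.9 ± 1.51 in the silibinin and phloridzin groups. It was called in all 3 comparisons with the model group as deposited and in none after scaling, while Rnf145 was called higher in the model group (log2 fold change 1.22 ± 0.12) and had values of -0.36 and -0.40 that did not pass with the drugs.

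Of 9 other lectins and mannosidases Man1c1 was called higher in the model group and Man1a2 lower (log2 fold change 1.09 and -1.001), and none was called in either drug group compared with the model group. Of 21 other ligases, ubiquitin-conjugating enzymes and cofactors, Rnf185, Rnf145, Ube2g2 and Herpud2 were called higher in the model group. Ube2g2, the conjugating enzyme that works with ER ligases, was lower than the model group with phloridzin (log2 fold change -1.24 ± 0.30) and did not pass with silibinin (-0.73 ± 0.30). It had 3.59, 2.82 and 8.57 FPKM in the silibinin livers and 3.28, 2.63 and 2.74 in the phloridzin livers, and its difference between the drugs did not pass in limma (adjusted p = 1). Of 26 genes for extraction by VCP, Ubxn4 was called higher in the model group. Ubxn4 and Selenok were called lower with silibinin and Selenok with phloridzin (Selenok -1.30 ± 0.15 and -1.03 ± 0.15). After scaling none of these 56 genes was called higher in the model group and 2 were called lower, 1 lectin or mannosidase and 1 gene for extraction. Over all 11935 genes, 521 were then called higher and 408 lower. The calls with the drugs went from 3 to 1 for silibinin and from 3 to 0 for phloridzin, where 1.97% and 1.95% of all genes were called lower. None of the 56 was called between the drugs or between a drug and control (limma). Against control 2 were higher and 1 lower with silibinin and 2 higher with phloridzin by the adjusted p alone. By that measure 652 of all 11989 genes were higher and 63 lower with silibinin, and 1042 were higher with phloridzin.

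Chaperones and oxidoreductases hand substrates to ERAD. Of 19 tested, 10 were called higher in the model group, 14 lower with silibinin and 13 lower with phloridzin (9.98%, 3.49% and 3.12% of all genes), with median log2 fold changes of 1.2996, -1.57 and -1.63. By the adjusted p alone 15 passed in each of the 3 comparisons (32.8%, 12.5% and 11.2% of all genes), and after scaling 6, 12 and 12 were called (4.37%, 1.97% and 1.95%). The list was not tested against the ERAD genes. Hspa5, which encodes the ER chaperone BiP, had 130, 176 and 127 FPKM in the control livers, 471, 517 and 543 in the model livers, 84.0, 89.7 and 61.8 in the silibinin livers, and 75.0, 83.9 and 77.3 in the phloridzin livers. All 6 drug-treated livers were below all 3 control livers, and the share of all genes separated in this way was not computed. Against control the log2 fold change of Hspa5 was -0.87 for silibinin and -0.85 for phloridzin, and it was called in neither. Creld2, an ER stress-inducible protein, had the largest fall of the list from the model livers, -3.59 ± 0.22 for silibinin and -3.29 ± 0.22 for phloridzin in log2 fold change.

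Several chaperones were also below the control group with the drugs. Calr, which encodes the lectin chaperone calreticulin, had log2 fold changes against the control livers of -1.73 ± 0.32 for silibinin and -1.52 ± 0.32 for phloridzin. Creld2 was called lower in both as well (-1.31 and -1.01), and Sdf2l1 with phloridzin (-1.13). These 2 calls with silibinin and 3 with phloridzin became 5 and 5 after scaling. Over all genes, 33 and 38 of 11989 were called lower than control as deposited, and 52 and 58 of 11935 after scaling. P4hb, the protein disulfide isomerase, had 441 and 409 FPKM in control livers 1 and 2 but 2.22 in control liver 3, and was not called in any of the 3 comparisons with the model group.

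Among 13 UPR sensors and transcription factors, 6 were called higher in the model group, 3 lower with silibinin and 5 lower with phloridzin (9.98%, 3.49% and 3.12% of all genes), with median log2 fold changes of 1.16, -0.78 and -0.79. After scaling 2 were called higher and 1 lower in the model group, 2 lower with silibinin and 4 lower with phloridzin. Of all genes, 4.37% were then called higher and 408 of 11935 lower in the model group, and 1.97% and 1.95% lower with the drugs. Eif2ak3, the sensor PERK, had log2 fold changes of 1.45 ± 0.15, -1.46 ± 0.15 and -1.27 ± 0.15. Ern1, the sensor IRE1, had 1.16 ± 0.13 in the model group. Ddit3, which encodes the stress factor CHOP, had 4.58, 31.1 and 42.0 FPKM in the model livers and at most 1.84 FPKM in the other 9 livers. Creb3l3, the most abundant gene of the list, went the other way, with 108 ± 2.92 FPKM in control and 67.9 ± 6.11 in model livers (SD, n = 3). Its log2 fold changes of -0.66, 0.45 and 0.40 passed the adjusted p (limma, 0.0012, 0.017 and 0.032) but not the fold cutoff. By the adjusted p alone 7 of the list were higher and 1 lower in the model group (3933 and 479 of all 11989 genes). Xbp1 did not pass in any of the 3 (log2 fold change 0.58, -0.71 and -0.57), and its splicing, by which IRE1 activates it, was not measured by these values. No gene of this list was called in limma in the other 3 comparisons.

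**Figure D5:**
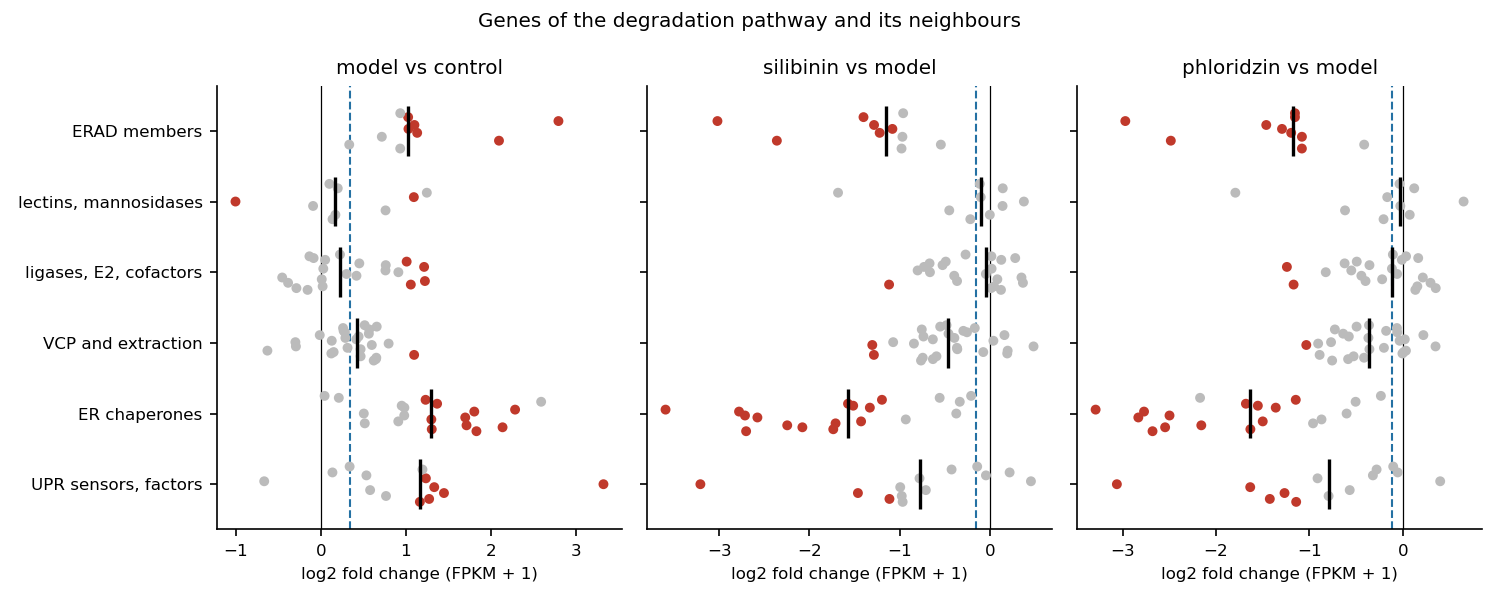
Log2 fold change (horizontal axis) of each tested gene of the ERAD genes and of 5 further lists in 3 comparisons, red where called and grey where not, with a black bar at the median of the list and a dashed line at the median of all genes tested. The ER chaperones are furthest from the dashed line in the drug panels, and the 3 other ERAD lists sit near it from control to model.

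The pattern of the ERAD genes over the 12 livers was summarised by the mean of their standardised log2 values, which was 1.58, 1.51 and 1.55 in the model livers and between -0.81 and -0.21 in the other 9. Of 10846 other genes with a mean of at least 1 FPKM, the 6 most like it by Pearson r over the 12 livers were Srm (r = 0.989), Dnajb9 (0.985), Slc35e1, Zfand2a and Tmem248 (0.982 each) and Srprb (0.981). These livers form groups, with the model livers apart, so r describes that contrast. Srm, the spermidine synthase gene, had 9.36 ± 0.732 FPKM in control, 44.5 ± 2.95 in model, 6.60 ± 0.271 in silibinin and 7.70 ± 0.417 in phloridzin livers (SD, n = 3). Dnajb9, which encodes the BiP cofactor ERdj4, had 28.8 ± 6.21, 95.6 ± 10.8, 19.5 ± 3.86 and 20.6 ± 1.31. Srprb, a subunit of the receptor that docks ribosomes on the ER, had 6.91 ± 0.431, 26.7 ± 0.623, 5.62 ± 0.618 and 5.96 ± 1.14.

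Markers of liver cell types were read in the same livers. The 10 hepatocyte markers, led by Alb, summed to 22704, 27093 and 22121 FPKM in the control livers, 18861, 27482 and 30506 in the model livers, 31403, 36983 and 22198 in the silibinin livers, and 24403, 32711 and 26458 in the phloridzin livers, and the groups overlapped. Only Cyp2e1, the enzyme that activates CCl4, was called in this list in the model group (log2 fold change -2.35 ± 0.39). After scaling 2 of the hepatocyte markers were called lower, as were 408 of 11935 genes. The median log2 fold change of the list was -0.15 as deposited and -0.57 after scaling. The 10 stellate cell and myofibroblast markers, led by Dcn, summed to 88.7, 80.1 and 92.8 FPKM in the control livers, 245, 240 and 275 in the model livers, 246, 279 and 138 in the silibinin livers, and 325, 194 and 171 in the phloridzin livers. Of these 5 were called higher in the model group, against 9.98% of all genes tested. Col1a1 had a log2 fold change of 4.35 ± 0.56 there. None of the list was called in either drug group compared with the model group (Col1a1 -0.44 and -0.55).

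The 10 macrophage markers, led by Lyz2, summed to 141, 245 and 202 FPKM in the control livers, 386, 613 and 525 in the model livers, 465, 585 and 440 in the silibinin livers, and 731, 698 and 383 in the phloridzin livers. Of these 3 were called higher in the model group, against 9.98% of all genes tested. None was called with the drugs compared with the model group. The 11 B and plasma cell markers, led by Igkc, were of interest because plasma cells carry a large ER. They summed to 4.70, 12.4 and 10.998 FPKM in the control livers, 42.5, 101 and 39.7 in the model livers, 22.3, 67.6 and 26.0 in the silibinin livers, and 39.6, 25.4 and 34.3 in the phloridzin livers. Igkc and Ighm were not tested because their transcripts are annotated as immunoglobulin segments and not as protein coding, and Cd79a, Tnfrsf17 and Pou2af1 because their means were under 0.5 FPKM. Igkc had 2.73, 6.67 and 6.21 FPKM in the control livers, 28.8, 73.8 and 25.04 in the model livers, 9.99, 41.4 and 14.7 in the silibinin livers, and 23.6, 15.3 and 22.8 in the phloridzin livers. Its silibinin livers overlapped the model livers and its phloridzin livers lay below them. Ighm had means of 0.305, 3.92, 2.51 and 0.957 FPKM in the same order of groups. Of the 6 tested only Jchain was called in the model group (log2 fold change 1.81 ± 0.44), and its values with the drugs were -0.04 and -0.23.

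The 8 sinusoidal endothelial markers, led by Clec4g, had no call in the 3 comparisons with the model group and summed to 57.9 to 116 FPKM over the 12 livers. The 7 cholangiocyte markers, led by Spp1, summed to 11.6, 13.1 and 16.7 FPKM in the control livers, 46.5, 56.3 and 50.6 in the model livers, 48.0, 49.0 and 24.2 in the silibinin livers, and 25.8 to 52.8 in the phloridzin livers, with Krt7 and Epcam under 0.5 FPKM on average and Spp1 called in the model group. The 6 neutrophil markers, led by S100a8, summed to 22.3, 8.38 and 23.7 FPKM in the control livers, 29.7, 75.2 and 47.0 in the model livers, 19.2, 28.2 and 11.2 in the silibinin livers, and 24.3, 83.8 and 40.2 in the phloridzin livers. Retnlg was called higher in the model group and lower with silibinin, and in neither after scaling. The 8 T and NK cell markers, led by Nkg7, summed to 1.75 to 12.6 FPKM and had no call with the model group. The 7 pancreatic acinar markers found, led by Cela1, summed to 4.88 to 11.7 FPKM, with Cpa1 and Cpb1 at 0 in every liver. No defining marker of the other lists was at 0 in every liver. Compared with the control group, silibinin had calls in the stellate (2), macrophage (3) and B and plasma cell (1) lists and phloridzin in these lists (2, 6 and 1) and the cholangiocyte list (1), all higher. Over all 11989 genes, 228 were called higher with silibinin and 363 with phloridzin. After scaling the macrophage calls with phloridzin went from 6 to 3 and the B and plasma cell calls from 1 to 0 with either drug. Over all 11935 genes, 159 and 200 were then called higher. As deposited, in the hepatocyte list Cyp2e1 was lower with phloridzin. All 9 lists had no call between the drugs. The sums of all lists but the hepatocyte, sinusoidal and acinar ones were higher in all 3 model livers than in all 3 control livers. Of single genes tested, 46.4% were separated in this way as deposited. The part of these cell types in the ERAD result was not tested.

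The limits of these values are the 3 livers in each group, the shift of all genes between the model and control groups, and transcript assignment. Transcripts not annotated as protein coding, those of nonsense-mediated decay included, made up 18.8%, 14.2% and 10.5% of the FPKM of the 10 ERAD genes in the model livers, 9.94%, 7.26% and 7.34% in the control livers, 10.2%, 7.70% and 6.42% in the silibinin livers, and 16.7%, 7.70% and 6.94% in the phloridzin livers. On coding transcripts alone 5, 5 and 8 of the ERAD genes were called in the 3 comparisons with the model group, against 6, 6 and 9 over all transcripts. Of the 11313 genes tested on coding transcripts, 900 were called higher in the model group, and 325 and 290 lower with silibinin and phloridzin.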

How the data were processed

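The authors sequenced RNA of 12 livers and deposited FPKM values for 169430 transcripts. The submitters' processing notes name bcl2fastq, FastQC 0.11.5, HISAT2 2.1.0, StringTie 1.3.3b, DESeq 1.28.0 and the build mm10. Whether the libraries kept the strand is not stated. Values are FPKM as deposited by the authors. Library depth was 83.7 to 111 M steps, read from the values of transcripts of at least 1500 bases. Silibinin was given at 27.3 mg/kg and phloridzin at 40 mg/kg. FPKM was summed per gene symbol, and genes with a protein-coding transcript (GENCODE M21, GRCm38; 81968 of 82136 Ensembl transcripts matched) and a mean of at least 0.5 FPKM were tested. One limma fit (3.58.1, R 4.3.3, trend) on log2(FPKM + 1) covered all 12 livers without a block, with 6 comparisons and Benjamini-Hochberg adjustment within each. The fit was checked on simulated data. Data handling used the R package data.table (version 1.17.8), Python 3.11.15, numpy 2.4.6 and pandas 2.3.3, and plots with matplotlib 3.10.9. Named genes were all 10 ERAD genes, up to 3 called genes per direction and comparison from each other list, with defining and most abundant markers, and the 6 genes most like the ERAD mean; transcripts were the main one per gene and those with at least 10% of its FPKM. Herpud2, Ern1, Xbp1, Creb3l3 and P4hb fall outside that rule and were named after their values were seen. The members and lists were chosen with earlier results of these data known. Alternatives were a pseudocount of 0.1, other filters, scaling by median ratios, only the compared groups, a replicate block, coding transcripts, the top transcript, no fold cutoff, voom on recovered steps, and leaving out each liver. Transcripts without a gene symbol entered no test.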

Additional observations from a re-analysis of the deposited data

How the results depend on the processing

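Of the settings tried, the counts of ERAD genes called were 6 (model vs control), 6 (silibinin vs model), 9 (phloridzin vs model) and 0 in the 3 others. From control to model the count was 2 when scaled by median ratios, where 4.37% of all genes were called higher. It was 3 on the transcript with the highest mean (815 of 11196 genes) and 10 with no fold change cutoff (32.8%). From model to silibinin it was 10 with no cutoff (12.5% lower), and from model to phloridzin 5 when scaled (1.95% lower). Scaled with no cutoff, a setting chosen after seeing the data, it was 1 for silibinin and 3 for phloridzin against control (1.25% and 1.66% of all genes lower). Leaving out each liver gave 4 to 7, 5 to 8 and 8 to 9 calls, and 0 in the 3 others. A group then left with fewer livers shares the pooled spread. In these fits 1099 to 1252 of all 11989 genes were called higher in the model group. With silibinin 349 to 435 were called lower, and with phloridzin 307 to 508. The replicate block gave 6, 6 and 9, with 1184 of all genes called higher in the model group and 406 and 368 lower with the drugs. Other settings stayed within 1.5 times. Derl2 turned to -0.0718 from control to model when scaled. Between the drugs, Edem2 was -0.0003 when scaled and Selenos -0.0468 on coding transcripts. Leaving out each liver, Derl3, phloridzin vs silibinin, ran from -0.28 to 0.0134, Syvn1 from -0.30 to 0.61 and Herpud1 from -0.37 to 0.0766. Similarly Edem3, silibinin vs control, ran from -0.13 to 0.0384, Syvn1 from -0.79 to 0.10 and Herpud1 from -0.30 to 0.15, and for phloridzin against control Syvn1 ran from -0.52 to 0.10. Of 230 fold changes recomputed per comparison, 208, 212, 218, 221, 223 and 225 kept direction and side of the call (adjusted p with the cutoff), in the order model vs control, silibinin vs model, phloridzin vs model, phloridzin vs silibinin, silibinin vs control and phloridzin vs control. The cause was not tested. The numbers in the titles pair nothing: 18 pairs of livers with the same number had r from -0.112 to 0.0829 and 3 of 12 livers correlated best with their own number.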

Other observations

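Transcripts without a gene symbol were read at the ERAD loci, after their values had been seen. All 8 NONCODE transcripts there with a mean of at least 0.5 FPKM had every model liver above every control liver, as had 43.1% of 8508 such transcripts in the table. NONMMUT010558.2, in Derl2, had a mean of 2.08 FPKM in control and 4.62 in model livers, and NONMMUT015241.2, in Sel1l, had 1.20 and 3.17. NONMMUT033652.2, on the opposite strand at Syvn1, had 0.869 and 1.75.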
